A study of Mus musculus with 4 samples.

Results

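The transforming growth factor beta (TGF-beta) and activin ligands and the TGF-beta receptors were followed in fibro-adipogenic progenitors (FAPs), the mesenchymal stromal cells of skeletal muscle. The 10 genes were taken by symbol from the 24421 gene symbols of the read count table: the ligands Tgfb1, Tgfb2, Tgfb3, Inhba, Inhbb, Gdf10 and Mstn, and the receptors Tgfbr1, Tgfbr2 and Tgfbr3. FAPs were sorted from wild-type adult mice as live CD31- CD45- Sca1+ cells and divided by surface DPPIV, the dipeptidyl peptidase that Dpp4 encodes. RNA-seq was made of 4 libraries, a DPPIV- and a DPPIV+ library from each of 2 mice, and the comparison asks which genes set the DPPIV+ FAPs apart. Both mice had been fed chow with a CSF1R inhibitor, which depletes resident macrophages, for 3 weeks and then regular chow for 3 days. Both cell types therefore share this treatment, and no effect of the inhibitor can be read from them. The labels name the tibialis anterior as the tissue, whereas the protocol describes digestion of the hindlimb muscles.

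TGF-beta ligands are secreted in a latent form, held in the matrix by latent TGF-beta binding proteins, and released by integrins or proteases. Active TGF-beta binds the type II receptor TGFBR2, which recruits and phosphorylates the type I receptor TGFBR1, and the receptors then phosphorylate SMAD2 and SMAD3. The co-receptor betaglycan, encoded by Tgfbr3, presents ligand to TGFBR2, while activins and myostatin use activin type II receptors. In muscle, TGF-beta drives matrix production by fibroblastic cells, and myostatin and activin A restrain muscle mass.

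Library totals ranged from 18240110 to 20879405 reads assigned to genes, and 11588 genes passed a minimum of 2 CPM in at least 2 libraries. CPM, the normalised read count, is a gene's reads as a share of its library's reads, on totals scaled by the trimmed mean of M values. Dpp4 reached 89.8 and 39.7 CPM in the DPPIV- libraries of mouse 1 and mouse 2 and 728 and 575 CPM in the DPPIV+ libraries, so the sorted protein and its RNA had the same order in both mice. The FAP markers Pdgfra and Ly6a, the gene of Sca1, stood at 1159 CPM or more and 962 CPM or more in every library.

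Of the 10 genes, 9 passed the minimum, and edgeR's quasi-likelihood test, with mouse as a block and p-values adjusted by Benjamini-Hochberg over all genes tested, called 2 of them higher and 5 lower in DPPIV+ FAPs. Over all genes tested, 15.9% were called higher and 17.2% lower, or 33.0% in either direction. All 5 called lower were ligands, among 6 ligands tested, and both called higher were receptors, among 3. The groups did not overlap for 2 genes that were higher and 4 that were lower, against 27.8% and 28.6% of all genes tested. DESeq2 on the same model called 5 of the 9, 2 higher and 3 lower, against 7.97% and 8.59% of all genes, or 16.6% in either direction. The median log2 fold change of the 9 genes was -0.17, beside -0.0020 over all genes tested.

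**Figure D1:**
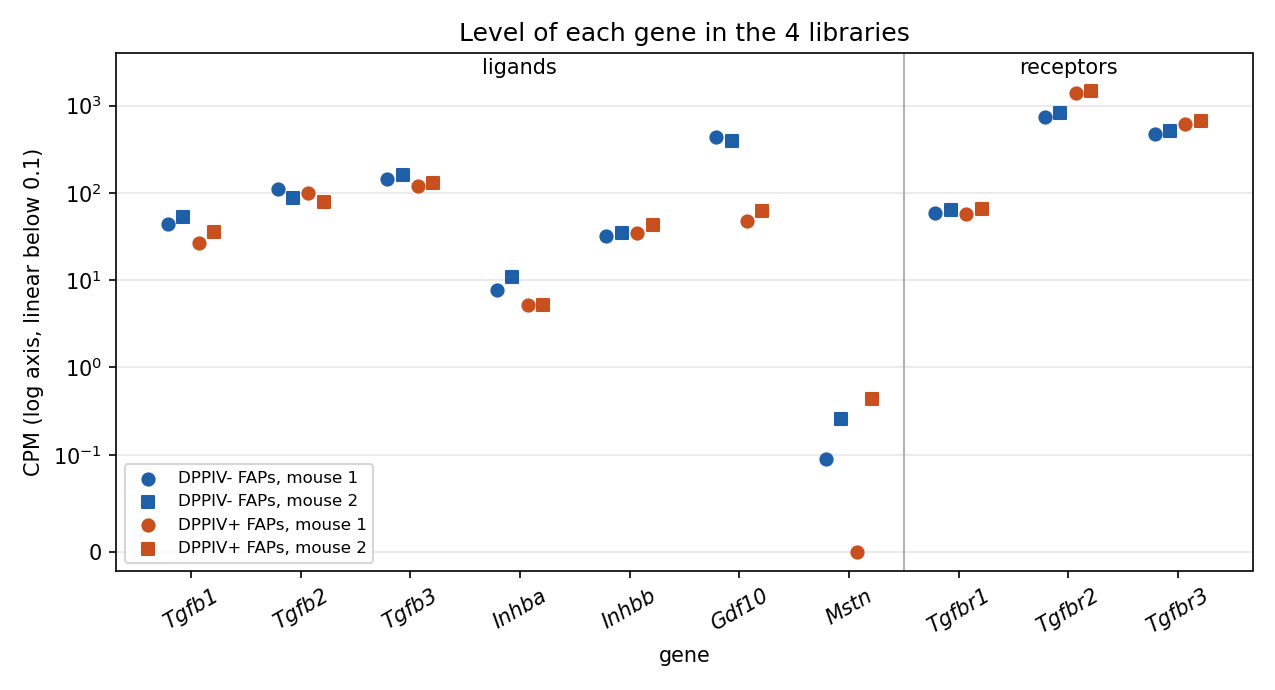
Normalised read count (CPM, log axis) of the 10 genes in the 4 libraries, with points for single libraries, marked by mouse and cell type. Gdf10 fell from 437 and 398 to 47.3 and 61.3 CPM, whereas Tgfbr2 rose from 731 and 832 to 1393 and 1484 CPM.

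Gdf10, also known as BMP3B, encodes a secreted ligand of the TGF-beta superfamily. Its gene lies at chr14:33923587-33937983 on the plus strand (mm10). Gdf10 had 437 and 398 CPM in the DPPIV- libraries of mouse 1 and mouse 2 and 47.3 and 61.3 CPM in the DPPIV+ libraries, from 9141, 7777, 852 and 1117 reads. The lowest DPPIV- value was far above the highest DPPIV+ value. The log2 fold change was -2.95 with a standard error (SE) of 0.07 (n = 2 mice; adjusted p = 1.91e-320, Benjamini-Hochberg adjusted quasi-likelihood test of edgeR), a 7.71-fold lower level. The change was -3.21 in mouse 1 and -2.70 in mouse 2 on the log2 scale. These differ by more than the SE, and only 1 residual degree of freedom is left in each gene. EdgeR's estimate of the prior degrees of freedom was infinite, so its SE and p-value rest on the spread shared over genes. They do not take up the spread of Gdf10 itself between mice. DESeq2 gave Gdf10 an SE of 0.25 (adjusted p = 2.82e-30, Wald test). Without the mouse term, edgeR's quasi-likelihood test gave an adjusted p of 3.20e-05. Gdf10 ranked 26th from the lowest log2 fold change among the 11588 genes. In bulk RNA, fewer Gdf10-expressing cells and less Gdf10 RNA per cell cannot be told apart, which holds for every gene below.

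The sequence in front of Gdf10 is shown because this gene had the largest change of the 10. It is the 250 bases before the RefSeq start at chr14:33923337-33923586 on the plus strand (GRCm38.p6), with the letters of the GC box GGGCGG on either strand in capitals.
Gdf10: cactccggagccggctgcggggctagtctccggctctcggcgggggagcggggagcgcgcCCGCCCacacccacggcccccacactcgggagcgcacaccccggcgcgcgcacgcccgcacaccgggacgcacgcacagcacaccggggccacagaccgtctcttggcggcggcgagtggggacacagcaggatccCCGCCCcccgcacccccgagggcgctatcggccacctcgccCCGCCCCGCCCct
This window is 78.8% GC, against a median of 52.4% over all 32851 windows, and holds 4 GC box matches, the last pair of which overlap. Such a match was found in 32.7% of all windows of this length and, in at least 1 window, for 65.9% of the 8877 genes tested that have one.

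The TGF-beta ligands Tgfb1 and Tgfb3 were lower in DPPIV+ FAPs, by far less than Gdf10. Tgfb1 (chr7:25687002-25705077, plus strand), the isoform best known from immune and fibrotic signalling, had 44.2 and 53.1 CPM in DPPIV- and 26.6 and 35.5 CPM in DPPIV+ libraries of mouse 1 and mouse 2. The cell types did not overlap, and both mice moved the same way, by -0.73 and -0.58. The log2 fold change was -0.65 with an SE of 0.08 (n = 2 mice; adjusted p = 6.45e-15, Benjamini-Hochberg adjusted quasi-likelihood test of edgeR). Tgfb3 (chr12:86056745-86079041, minus strand), an isoform with roles in palate and lung development, had 144 and 162 CPM in DPPIV- and 119 and 129 CPM in DPPIV+ libraries. Its cell types did not overlap either, with a narrower gap than for Tgfb1. For Tgfb3 the log2 fold change was -0.30 with an SE of 0.07 (n = 2 mice; adjusted p = 4.38e-05, Benjamini-Hochberg adjusted quasi-likelihood test of edgeR). Without the mouse term the Tgfb3 call was lost in edgeR's quasi-likelihood test (adjusted p = 0.0635).

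Tgfb2 (chr1:186622792-186705989, minus strand), an isoform needed for heart and skeletal development, had 111 and 88.3 CPM in DPPIV- and 99.0 and 78.0 CPM in DPPIV+ libraries. The cell types overlapped, since mouse 1 stood above mouse 2 in both, and within each mouse the DPPIV+ library was lower, by -0.17 and -0.18. The log2 fold change was -0.17 with an SE of 0.07 (n = 2 mice; adjusted p = 0.0287, Benjamini-Hochberg adjusted quasi-likelihood test of edgeR). This call depended on the pairing, the tool and the filter. The adjusted p was 0.508 in edgeR's quasi-likelihood test without the mouse term, 0.0831 in that test with no filter on low counts, and 0.468 in DESeq2.

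Activins are dimers of inhibin beta chains, and of the 2 chain genes followed 1 was called. Inhba (chr13:16011851-16031621, plus strand), which encodes the subunit of activin A, had 7.79 and 10.8 CPM in DPPIV- and 5.22 and 5.21 CPM in DPPIV+ libraries, from 163, 212, 94 and 95 reads. The cell types did not overlap, and the spread between DPPIV- mice was wide. The log2 fold change of Inhba was -0.82 with an SE of 0.18 (n = 2 mice; adjusted p = 3.03e-05, Benjamini-Hochberg adjusted quasi-likelihood test of edgeR), with -0.58 in mouse 1 and -1.06 in mouse 2. DESeq2 did not call Inhba (adjusted p = 0.0591). Inhbb (chr1:119415465-119422248, minus strand), which encodes the subunit of activin B, had 32.4 and 34.9 CPM in DPPIV- and 34.7 and 42.6 CPM in DPPIV+ libraries. The cell types overlapped, and the Benjamini-Hochberg adjusted quasi-likelihood test of edgeR did not call Inhbb at a log2 fold change of 0.19 (n = 2 mice; SE 0.08; adjusted p = 0.0544). The 95% interval of that fold change was 0.03 to 0.36 before adjustment for the number of genes. DESeq2 gave a 95% interval of -0.12 to 0.50 (adjusted p = 0.616). Of the 8 alternatives with all libraries, 1 called Inhbb, the correction for exon length and GC content, at a log2 fold change of 0.31 (adjusted p = 0.00317, edgeR's quasi-likelihood test).

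Mstn (chr1:53061640-53068079, plus strand), the gene of myostatin, is made chiefly by muscle fibres. It had 2 and 5 reads in DPPIV- and 0 and 8 reads in DPPIV+ libraries, or at most 0.439 CPM, and was not tested. A count of 3 reads corresponds to 0.143 to 0.167 CPM in these libraries, and no difference in Mstn was detectable at this depth.

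Of the 3 TGF-beta receptors, 2 were higher in DPPIV+ FAPs and 0 lower. Tgfbr2 (chr9:116084293-116175360, minus strand), the type II receptor, had 731 and 832 CPM in DPPIV- and 1393 and 1484 CPM in DPPIV+ libraries of mouse 1 and mouse 2. The lowest DPPIV+ value was well above the highest DPPIV- value. The log2 fold change was 0.88 with an SE of 0.07 (n = 2 mice; adjusted p = 3.02e-33, Benjamini-Hochberg adjusted quasi-likelihood test of edgeR), a 1.84-fold higher level. Tgfbr3 (chr5:107106570-107289629, minus strand), the betaglycan gene, had 476 and 515 CPM in DPPIV- and 619 and 666 CPM in DPPIV+ libraries. The cell types were again apart, at a smaller distance. For Tgfbr3 the log2 fold change was 0.37 with an SE of 0.07 (n = 2 mice; adjusted p = 4.14e-07, Benjamini-Hochberg adjusted quasi-likelihood test of edgeR), a 1.30-fold higher level.

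Tgfbr1 (chr4:47353222-47414931, plus strand), the type I receptor, had 59.3 and 63.2 CPM in DPPIV- and 57.0 and 65.0 CPM in DPPIV+ libraries. The DPPIV- values lay within the range of the DPPIV+ values. Its log2 fold change was -0.01, with a 95% interval of -0.14 to 0.13 (n = 2 mice; adjusted p = 0.954, Benjamini-Hochberg adjusted quasi-likelihood test of edgeR). The DESeq2 interval was -0.26 to 0.25.

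The window in front of Tgfbr2 is given for comparison with that of Gdf10, since these genes had the largest changes in either direction. It is the 250 bases before the RefSeq start at chr9:116175364-116175613 on the minus strand (GRCm38.p6), written along the direction of transcription.
Tgfbr2: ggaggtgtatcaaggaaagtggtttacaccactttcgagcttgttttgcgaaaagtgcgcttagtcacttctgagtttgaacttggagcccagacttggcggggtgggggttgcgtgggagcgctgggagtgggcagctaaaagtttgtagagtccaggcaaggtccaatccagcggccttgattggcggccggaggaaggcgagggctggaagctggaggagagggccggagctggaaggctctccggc
This window is 58.4% GC and holds no match of the 5 motifs searched on both strands, so no letter is in capitals. The motifs were the GC box GGGCGG, the TATA box TATAAA, the AP-1 motif TGANTCA, the SMAD motif CAGACA and the TEAD motif GGAATG. Of all windows of this length, 12.4% held the TATA box, 6.75% the AP-1 motif, 17.1% the SMAD motif and 12.6% the TEAD motif. RefSeq windows were matched for 8 of the 10 genes. Among the others, Tgfb1 had 5 GC boxes, Tgfbr1 had 2 and Inhbb had 1, and Mstn, Tgfb2 and Inhba each held a TATA box. The SMAD motif was matched in Mstn, Tgfb2 and the other window of Tgfbr1, the AP-1 motif in Mstn and the TEAD motif in none of the 8 genes.

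**Figure D2:**
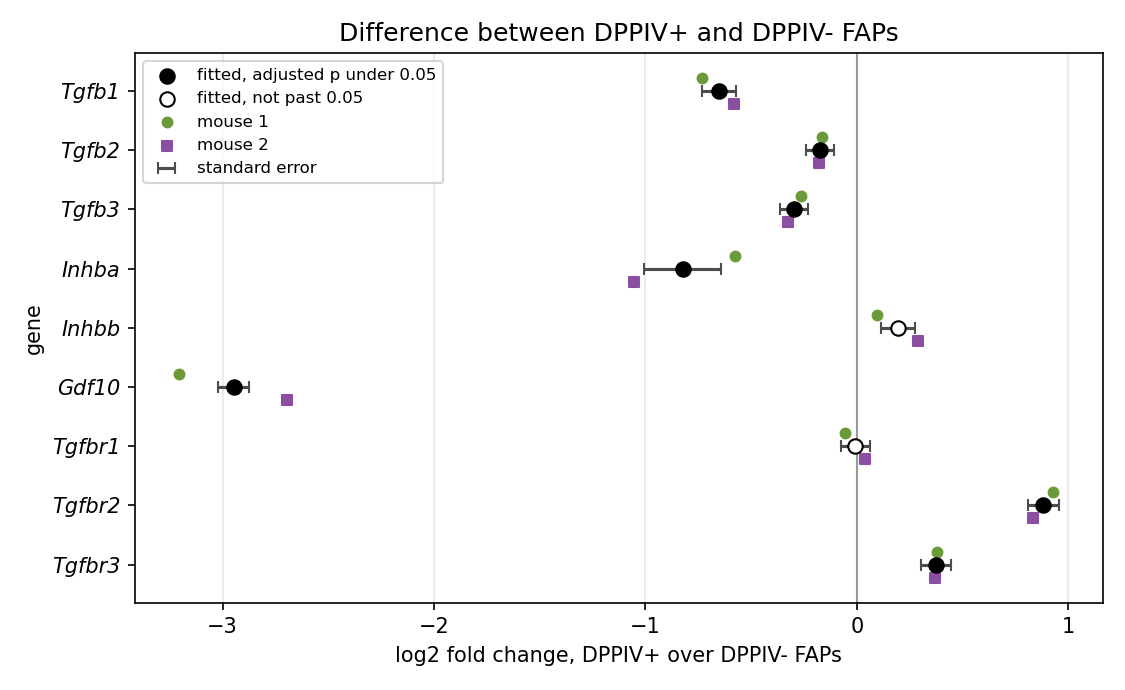
Log2 fold change of DPPIV+ over DPPIV- FAPs for the 9 genes tested, as the fitted value with its standard error and the log2 ratio of each mouse. Gdf10 lies at -2.95 and Tgfbr2 at 0.88, and the standard error bar of Tgfbr1 spans 0.

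Per kilobase of exon, the TGF-beta receptors and the ligands could be set side by side within a cell type. In DPPIV- FAPs Tgfbr2 was highest at 95.5 ± 8.74 CPM per kilobase (SD, n = 2 mice), followed by Gdf10 at 80.1 ± 5.32 and Tgfbr3 at 75.7 ± 4.20. The libraries of Tgfbr2 stood above those of Gdf10, whereas Gdf10 and Tgfbr3 overlapped and changed places when the longest transcript was taken as the length. Tgfb3 followed at 45.1 ± 3.85 and Tgfb2 at 17.2 ± 2.79 CPM per kilobase. Tgfb1 at 9.65 ± 1.25, Tgfbr1 at 9.37 ± 0.420 and Inhbb at 7.92 ± 0.410 CPM per kilobase lay close together, and Tgfb1 and Tgfbr1 were within their spread. With the longest transcript as the length, Tgfb1 stood at 18.9 ± 2.45 CPM per kilobase, level with Tgfb2 at 19.5 ± 3.15 and above Tgfbr1 at 10.6 ± 0.477. Inhba at 1.46 ± 0.337 CPM per kilobase and Mstn came last.

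In DPPIV+ FAPs Tgfbr2 stood at 176 ± 7.92 and Tgfbr3 at 98.1 ± 5.01 CPM per kilobase (SD, n = 2 mice), ahead of Tgfb3 at 36.7 ± 2.01 and Tgfb2 at 15.3 ± 2.57. Gdf10, second in the order of DPPIV- FAPs, fell to 10.4 ± 1.89 CPM per kilobase and the 5th place. Its spread met those of Tgfbr1 at 9.34 ± 0.857 and Inhbb at 9.09 ± 1.32 CPM per kilobase. Tgfb1 at 6.16 ± 1.25 and Inhba at 0.816 CPM per kilobase were lower still. With the longest transcript as the length, Tgfb1 moved up to the 5th place in DPPIV+ FAPs and Gdf10 down to the 7th.

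Summed over Tgfb1, Tgfb2 and Tgfb3, the level was 70.4 and 73.6 CPM per kilobase in DPPIV- and 57.7 and 58.7 CPM per kilobase in DPPIV+ libraries. Tgfb3 made up 62.6% ± 3.33 of this sum in DPPIV- and 63.1% ± 2.70 in DPPIV+ FAPs (SD, n = 2 mice). Tgfb3 was thus the leading TGF-beta ligand gene in all 4 libraries, and its share differed by less than the spread between mice. These shares hold for the exon length. With the longest transcript as the length, Tgfb1 stood at 18.9 ± 2.45 in DPPIV- and 12.1 ± 2.46 CPM per kilobase in DPPIV+ FAPs. The level of Tgfb3 did not change, so its share of the sum was smaller, though it still led in every library. The ratio of Tgfbr2 to Tgfbr1 per kilobase was 9.84 and 10.5 in DPPIV- and 19.5 and 18.2 in DPPIV+ libraries. With 2 mice per cell type no exact permutation test of these sums and ratios can reach the 0.05 threshold, and none was made.

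**Figure D3:**
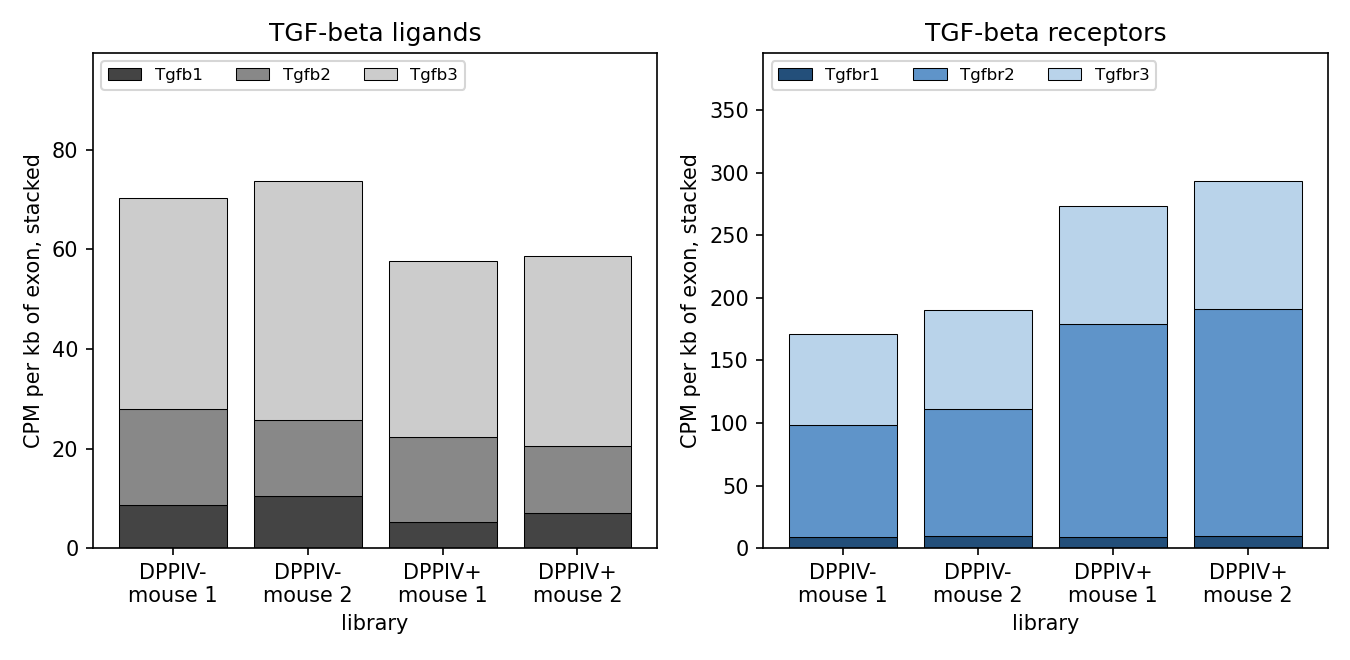
Levels of Tgfb1, Tgfb2 and Tgfb3 and of Tgfbr1, Tgfbr2 and Tgfbr3 per kilobase of exon (CPM per kilobase), as stacked bars for single libraries. Tgfb3 is the largest part of each ligand bar and Tgfbr2 the largest part of each receptor bar.

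Further genes of the pathway were grouped in 6 lists of 62 genes, of which 48 were tested, 6 called higher and 23 called lower in DPPIV+ FAPs by edgeR and 5 and 15 by DESeq2. In edgeR these were 12.5% higher and 47.9% lower, against 15.9% and 17.2% of all genes tested, so the share that was higher lay near that of all genes. DESeq2 called 7.97% of all genes higher and 8.59% lower. The median log2 fold change of the 48 pathway genes tested was -0.18. Of 12 genes of latency and activation, 11 were tested. EdgeR called 1 higher and 7 lower, or 9.09% and 63.6%, against 15.9% and 17.2% of all genes. DESeq2 called 1 higher and 4 lower, against 7.97% and 8.59% of all genes. Ltbp1, a latent TGF-beta binding protein gene, rose from 305 and 272 CPM to 599.7 and 554 CPM, a log2 fold change of 1.00 with an SE of 0.07. Ltbp4, of the same family and best known from elastic fibres, fell from 2642 and 2631 CPM to 1328 and 1559 CPM, a log2 fold change of -0.87. Ltbp2, a relative that does not bind latent TGF-beta, had 38.2 and 90.9 CPM in DPPIV- and 5.78 and 16.8 CPM in DPPIV+ libraries. The cell types did not overlap, although mouse 2 stood well above mouse 1 in both. The family thus moved in opposite directions. Itgb8, which encodes a chain of an integrin that activates TGF-beta, had a log2 fold change of -0.89 that DESeq2 did not call (adjusted p = 0.210). Itgb6, named here after its values were seen, was under the minimum with 1 and 2 reads in DPPIV- and 24 and 33 reads in DPPIV+ libraries.

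Among 8 other receptors and co-receptors, 4 were tested. EdgeR called 3 lower and 0 higher in DPPIV+ FAPs, against 17.2% and 15.9% of all genes tested. DESeq2 called 2 lower and 0 higher, against 8.59% and 7.97%. Acvr2a, a type II receptor of activins and myostatin, fell from 114 and 96.7 CPM to 54.5 and 49.6 CPM, a log2 fold change of -1.01 with an SE of 0.07. Acvr2b, the other activin type II receptor gene, was under the minimum with 10 and 19 reads in DPPIV- and 29 and 22 reads in DPPIV+ libraries, and is named here after its values were seen. The Acvr2a gene shares 446 exon bases with Orc4 on the opposite strand, and whether the counts used strand is not given in the sources used here. Eng, which encodes the co-receptor endoglin, fell from 288 and 269 CPM to 189 and 189 CPM, a log2 fold change of -0.56. Acvrl1, the type I receptor ALK1, was called by edgeR at -0.16 (adjusted p = 0.0493) and not by DESeq2 (adjusted p = 0.415).

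All 5 Smad transducer genes were tested, and 1 was called lower and 0 higher by edgeR, a share of 20.0% lower that is near the 17.2% of all genes. That gene, Smad3, had its call at a log2 fold change of -0.17 (adjusted p = 0.0390) and not by DESeq2 (adjusted p = 0.430). Smad4, the shared partner of the receptor Smads, had 80.1 and 78.6 CPM in DPPIV- and 88.0 and 85.6 CPM in DPPIV+ libraries and was not called by edgeR's quasi-likelihood test (adjusted p = 0.123).

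Of 16 inhibitor genes, 15 were tested, and edgeR called 4 higher and 3 lower, or 26.7% and 20.0%, against 15.9% and 17.2% of all genes. DESeq2 called 3 higher and 3 lower, against 7.97% and 8.59%. Smurf2 and Smurf1, ubiquitin ligases that target the receptors and Smads, rose by 1.25 and 1.02 on the log2 scale, with an SE of 0.07 for each. Vasn, whose product vasorin binds TGF-beta, rose from 160 and 172 CPM to 303 and 305 CPM. Fstl3, which encodes a secreted protein that binds activins and myostatin, went the other way, from 9.13 and 13.2 CPM to 3.11 and 6.53 CPM, a log2 fold change of -1.24 with an SE of 0.18. Fstl3 shares 1157 exon bases with Prss57 on the opposite strand. The inhibitors thus had no common direction.

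All 11 genes of the response list, which TGF-beta is known to raise in fibroblasts, were tested, and 9 were lower and 1 higher in DPPIV+ FAPs, against 17.2% and 15.9% of all genes. DESeq2 called 6 lower and 1 higher, against 8.59% and 7.97% of all genes. The median log2 fold change of the list was -0.58. Fn1, the fibronectin gene, was the exception, with 6483 and 6284 CPM in DPPIV- and 16181 and 15853 CPM in DPPIV+ libraries, a log2 fold change of 1.33. Cilp, which encodes a matrix protein that binds TGF-beta, fell from 2803 and 3265 CPM to 1082 and 1603 CPM, a log2 fold change of -1.20. Postn, the periostin gene, had a log2 fold change of -0.83. Tgfb1i1 was the gene of this list that was not called. Among 10 other ligand genes only Lefty1 and Gdf11 were tested, and neither was called, at log2 fold changes of -0.06 and 0.40.

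**Figure D4:**
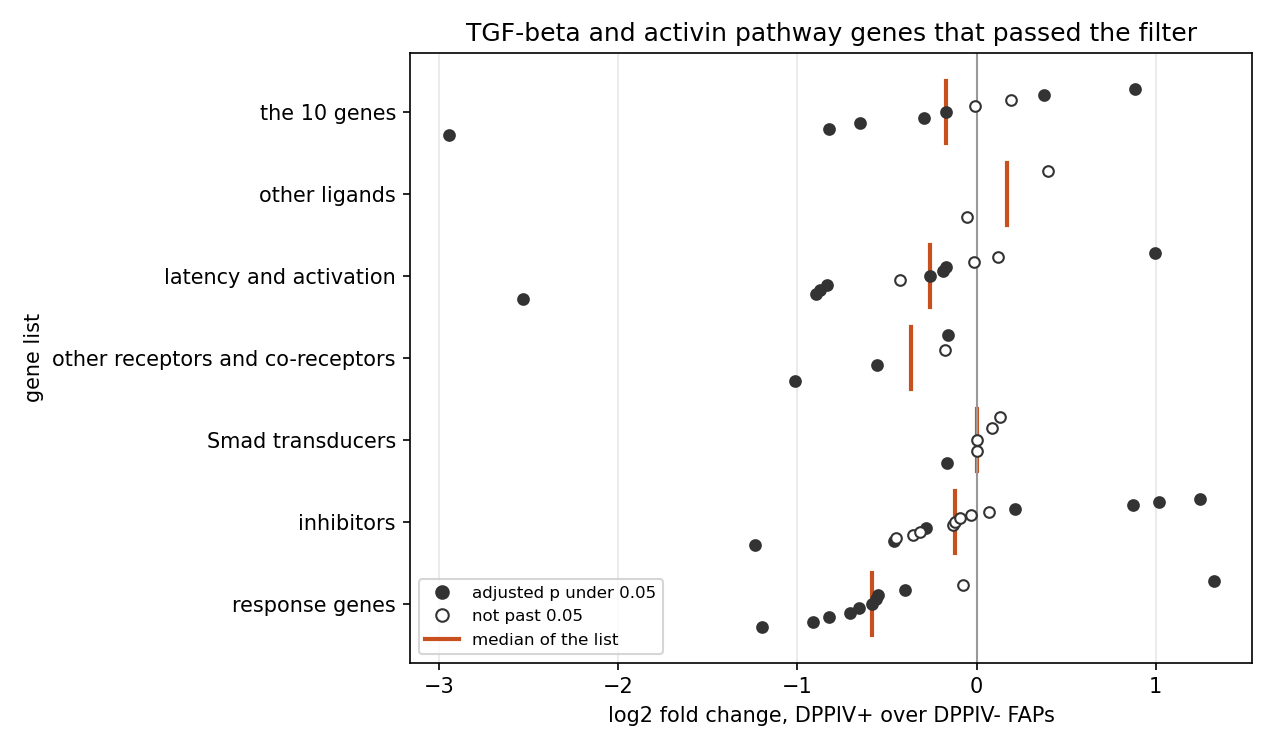
Log2 fold change of DPPIV+ over DPPIV- FAPs for the genes tested in the 10 followed and in each of the 6 pathway lists, with points for genes and a bar for the median. Response genes have a median of -0.58 with Fn1 alone above 1, and Smad transducers lie close to 0.

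Markers of other cell types were also summed in each library. Summed levels of 6 macrophage markers were 319 and 188 CPM in DPPIV- and 198 and 181 CPM in DPPIV+ libraries of mouse 1 and mouse 2, and those of 6 endothelial markers were 84.0 and 46.1 against 49.3 and 43.3 CPM. The log2 ratio of Tgfb1 was -0.73 in mouse 1 and -0.58 in mouse 2, and that of Gdf10 was -3.21 and -2.70. Mouse 2 had the larger change for Inhba, at -0.58 and -1.06, and for Tgfb3, at -0.26 and -0.33. For Tgfb2 the log2 ratios of mouse 1 and mouse 2 were -0.17 and -0.18, and for Inhbb 0.10 and 0.29. Those of Tgfbr2 were 0.93 and 0.83, of Tgfbr3 0.38 and 0.37, and of Tgfbr1 -0.06 and 0.04. EdgeR called 4 of the 6 macrophage and 4 of the 6 endothelial markers lower in DPPIV+ FAPs, against 17.2% of all genes tested. DESeq2 called 0 of each lower, against 8.59%. Summed levels of 6 mural markers were 121 and 123 CPM in DPPIV- and 51.2 and 63.5 CPM in DPPIV+ libraries. EdgeR called 5 of the 6 lower and DESeq2 3. The 5 tenocyte markers summed to 1798 and 2391 CPM in DPPIV- and 1902 and 3767 CPM in DPPIV+ libraries. EdgeR and DESeq2 each called 4 of the 5 higher, against 15.9% and 7.97% of all genes. Most of the tenocyte sum was Thbs4, which edgeR called lower. Thbs4 had 1602 and 2096 CPM in DPPIV- and 1153 and 2217 CPM in DPPIV+ libraries. Among the 4 called higher, Fmod rose from 168 and 260 to 689 and 1444 CPM. The summed FAP markers were 53050 and 49514 CPM in DPPIV- and 45642 and 44784 CPM in DPPIV+ libraries. No marker on these lists was at 0 in all libraries, and the part of these other cells in the ligand, receptor and response gene values was not tested.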

How the data were processed

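RNA was sequenced from 2 FAP populations of 2 mice. The authors deposited raw read counts per gene for all 4 libraries. The submitters' processing notes name bcl2fastq 2.20, STAR, Bowtie and the mm10 genome. The gene annotation and strand setting of the counts are not given in the sources used here, and the labels and the methods name different library kits. The deposited counts held 0 unnamed genes. Genes that reached 2 CPM in 2 or more libraries were scaled by TMM and tested with edgeR 4.0.16 (glmQLFit, glmQLFTest; R 4.3.3) on cell type with mouse as a block. Benjamini-Hochberg adjustment ran over all 11588 genes, and calls were made at 0.05. EdgeR's estimate of the prior degrees of freedom was infinite, and SE is the absolute log2 fold change divided by the square root of F. Log2 ratios per mouse used a prior count of 0.125. Intervals of fold changes are at the 95% level and are not adjusted. Mouse numbers in the titles pair the libraries, and across genes the difference between mice correlated at 0.415 between cell types (genes are not independent replicates).

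Gene positions and exon lengths came from GENCODE M21 (GRCm38) and promoter windows from RefSeq (GRCm38.p6). Exons of Tgfb2, Tgfb3 and Tgfbr3 overlap predicted genes by 124 to 297 bases. The 10 genes and all lists were chosen with earlier results of these data known. All 10 genes are named, and from each pathway list up to 4 genes with the largest absolute log2 fold change among those called with the same sign in both mice, or the 2 with most counts where fewer than 2 were called; 1 gene that this rule names is not reported here. The fit was tested on simulated data with 2-fold and 4-fold differences, and smaller ones were not covered. The simulated spread of each gene was set by its level, as in the fit. Genes whose spread between mice departs from that were not covered either. Alternatives were DESeq2 1.42.0, no mouse block, RLE and upper-quartile factors, no filter, a filter of 2 CPM in 3 libraries, robust moderation, a GC content and length correction, and leaving out each library or mouse. Counting intervals cover counting error only.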

Additional observations from a re-analysis of the deposited data

How the results depend on the processing

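Gdf10, Tgfb1, Tgfbr2 and Tgfbr3 were called in the same direction under all 8 alternatives that kept every library. Of the 10 genes, the number called lower went from 5 to 3 with DESeq2 and to 3 with no replicate block. Of the pathway genes, the number called lower went from 23 to 15 with DESeq2 and to 13 with no replicate block. Over all genes tested, calls went from 1837 higher and 1989 lower to 923 and 995 with DESeq2 and to 1001 and 1119 with no replicate block. Calls were 1489 and 2295 with upper-quartile factors and 2167 and 1687 with the GC content and length correction. Leaving out each library in turn, without the mouse term, gave 1 to 2 of the 10 genes higher, 1 to 4 lower, and 6 to 15 pathway genes lower. The lowest counts of lower genes, 1 and 6, came without the DPPIV+ library of mouse 1, where calls over all genes also fell, to 547 higher and 680 lower of 11457. Gdf10 and Tgfbr2 were called whichever library was left out, Tgfb1 without 3 of the 4, Tgfb3, Inhba and Tgfbr3 without 1 of the 4, and Tgfb2 without 0. In those fits the lone library is assumed to vary like the other cell type. Calls over all genes, higher and lower, were also fewer in each of those fits than in the main fit. A drop in calls was thus not particular to the 10 genes or the pathway genes. Tgfbr1, never called, changed sign to 0.0034 with no filter and to 0.04 without mouse 1, and ranged from -0.10 to 0.087 when each library was left out in turn. The cause of these changes was not tested. With 2 mice, replicate error rests on the spread shared over genes.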
